A study of Mus musculus with 12 samples.

Results

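The comparison described here is the difference in the response to lipopolysaccharide (LPS) between wild-type (WT) and Pim1-/- bone marrow-derived macrophages (BMDMs). All 12 RNA-seq libraries of the series enter it, 3 in each of 4 groups: untreated WT cells, WT cells given LPS, untreated Pim1-/- cells and Pim1-/- cells given LPS. LPS was used at 100 ng/ml for 4 h. The labels give C57BL/6 bone marrow grown for 7 d with recombinant human M-CSF at 10 ng/ml, and the methods give male mice of 8 to 10 weeks. The Pim1-/- mice carry a germline deletion of exons I to V made by genome editing, so every cell of the culture carried it during growth as well as during stimulation. The labels do not say whether the 3 libraries of a group came from separate mice or cultures, and p-values here measure only the spread between these libraries. Of 23997 genes listed, 10581 with at least 1 FPKM (fragments per kilobase of transcript, scaled to library size) in at least 3 libraries were tested. For each gene the change from untreated to LPS in WT cells was subtracted from the same change in Pim1-/- cells on the log2(FPKM + 1) scale, and this value is called the difference in response. A negative difference means a lower response in Pim1-/- cells, whether through less induction or through more repression. The addition of 1 FPKM understates changes of genes with low values.

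Macrophages sense LPS through TLR4, which signals through the adaptors MyD88 and TRIF. MyD88 leads mainly to NF-kB and AP-1, factors that switch on cytokine and chemokine genes, and TRIF leads through TBK1 to IRF3 and to interferon-beta, which in turn induces the interferon-stimulated genes (ISGs). Stimulated macrophages also make their own brakes, such as phosphatases and decoy ligands, leave the cell cycle and change their sterol and sugar metabolism. Pim1 is a serine/threonine kinase that LPS itself induces.

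Pim1 was read at 24.96, 21.5 and 22.3 FPKM in untreated WT libraries, at 665, 630.2 and 641 FPKM in WT libraries after LPS, at 8.70, 8.00 and 9.51 FPKM in untreated Pim1-/- libraries and at 216, 205 and 236 FPKM in Pim1-/- libraries after LPS. Within each treatment the Pim1-/- libraries lay below the WT libraries, and the signal that remained rose with LPS. The difference in response was -0.26 (standard error 0.09, adjusted p = 0.0234 from limma, corrected by the Benjamini-Hochberg method over all genes tested), short of the fold threshold, and it was 0.21 under quantile normalization. The value covers the whole gene, including the exons outside the deletion.

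The LPS response differed between genotypes by more than 2-fold, with p under 0.05 and an FDR under 0.1, for 706 genes, or 6.67% of those tested. It was lower in Pim1-/- cells for 469 genes (4.43%) and higher for 237 (2.24%). For most genes the difference was small, since 93.2% of the genes tested differed by less than 2-fold, with a median of -0.0 and the 5th and 95th percentiles at -0.95 and 0.76. When the FDR alone was used, 35.8% of the genes (3788) had a lower and 32.7% (3457) a higher response. Genes past all 3 limits are those called lower or higher in what follows. Every count of calls in a list is to be read beside the shares of 4.43% lower and 2.24% higher. A list with 1 call or none is not set apart from these shares by its count. How far lower calls outnumbered higher ones depended on the scale: the lower share was 66.4% of calls, 52.6% with a pseudocount of 0.1 FPKM (565 lower and 510 higher) and 58.0% under quantile normalization (311 higher of 741). The genes just inside the threshold were Gdpd1 and Ccdc163 at 1.001 and Mlkl and Mcm6 at -1.0 and -1.002, and those just outside were Fam107b and Egr2 at 1.0 and 0.998 and Shisa3 and Batf3 at -1.0 and -0.998. In 9 genes the difference was over 2-fold but not called. Most were small RNAs or a pseudogene with wide spread, and Saa3, an acute-phase protein gene, was among them.

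**Figure D1:**
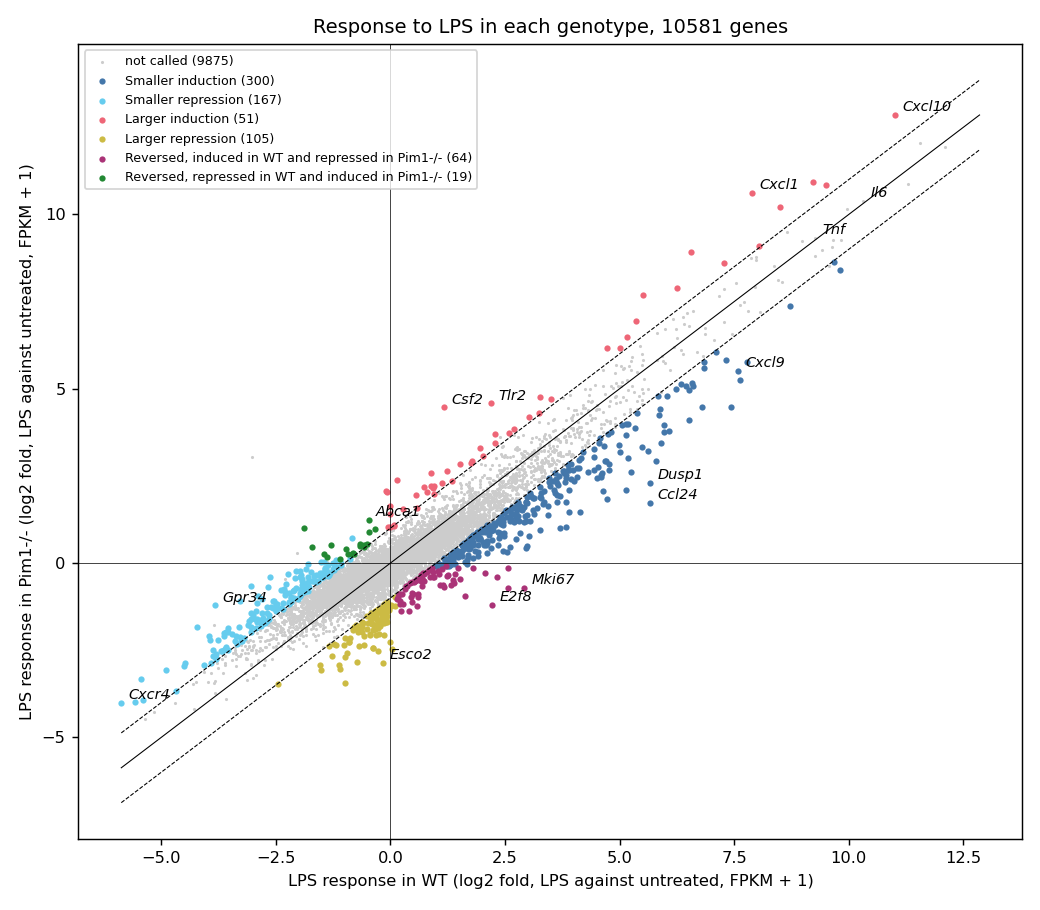
Response to LPS in WT cells (x axis) and in Pim1-/- cells (y axis), both as log2 fold of LPS against untreated on FPKM + 1, for the 10581 genes tested. The solid line marks equal responses, the dashed lines a 2-fold difference, and colours the 6 classes of called genes; most genes lie between the dashed lines, and Ccl24 and Dusp1 lie farthest below them among the genes labelled as less induced.

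The called genes were sorted into 6 classes by their response in each genotype. A smaller induction in Pim1-/- cells was the most common, with 300 genes and median responses of 2.72 in WT and 1.27 in Pim1-/- cells. A smaller repression was found for 167 genes, with medians of -2.39 and -1.08. Together these were the genes whose response was blunted, in either direction. A larger induction was found for 51 genes (medians 1.77 and 3.06) and a larger repression for 105 (medians -0.33 and -1.73). The response changed sign, with an FDR under 0.1 in each genotype, for 64 genes that rose in WT and fell in Pim1-/- cells (medians 0.72 and -0.55) and for 19 that fell in WT and rose in Pim1-/- cells (medians -0.81 and 0.46). These medians follow from the way the classes were cut and are given as a description. Larger repression leaned most on the pseudocount, since 74 of its 105 genes were still called with 0.1 FPKM, whereas 281 of 300 with smaller induction and 51 of 51 with larger induction were. Under quantile normalization 207 of the 300 genes with smaller induction were still called. The reversed classes held less well there, since 44 of 64 and 8 of 19 genes kept their class. A reversal did not need a 2-fold response in each genotype. In 33 of the 64 and 12 of the 19 genes neither response passed all 3 limits in its own genotype.

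A difference in response is the gap between genotypes after LPS minus the gap before it, and the classes differed in where that gap lay. In smaller induction the genotypes were near each other without LPS (median gap, Pim1-/- against WT, 0.11) and apart after it (-1.20), and the gap was wider after LPS for 236 of 300 genes. Larger repression was the opposite. The median gap was 2.26 in untreated cells and 0.65 after LPS, and it was wider in untreated cells for 97 of 105 genes. Larger induction mixed both patterns, with the wider gap in untreated cells for 34 of 51 genes (median -0.99) and after LPS for 17 (median over the class 0.37). Smaller repression likewise started from a lower level in untreated Pim1-/- cells (-0.81) and ended slightly above WT (0.42). These gaps use the same libraries as the difference in response. Over all genes tested, Pim1-/- cells were more than 2-fold lower for 3.37% and higher for 4.4% without LPS, and lower for 5.15% and higher for 3.51% after it.

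**Figure D2:**
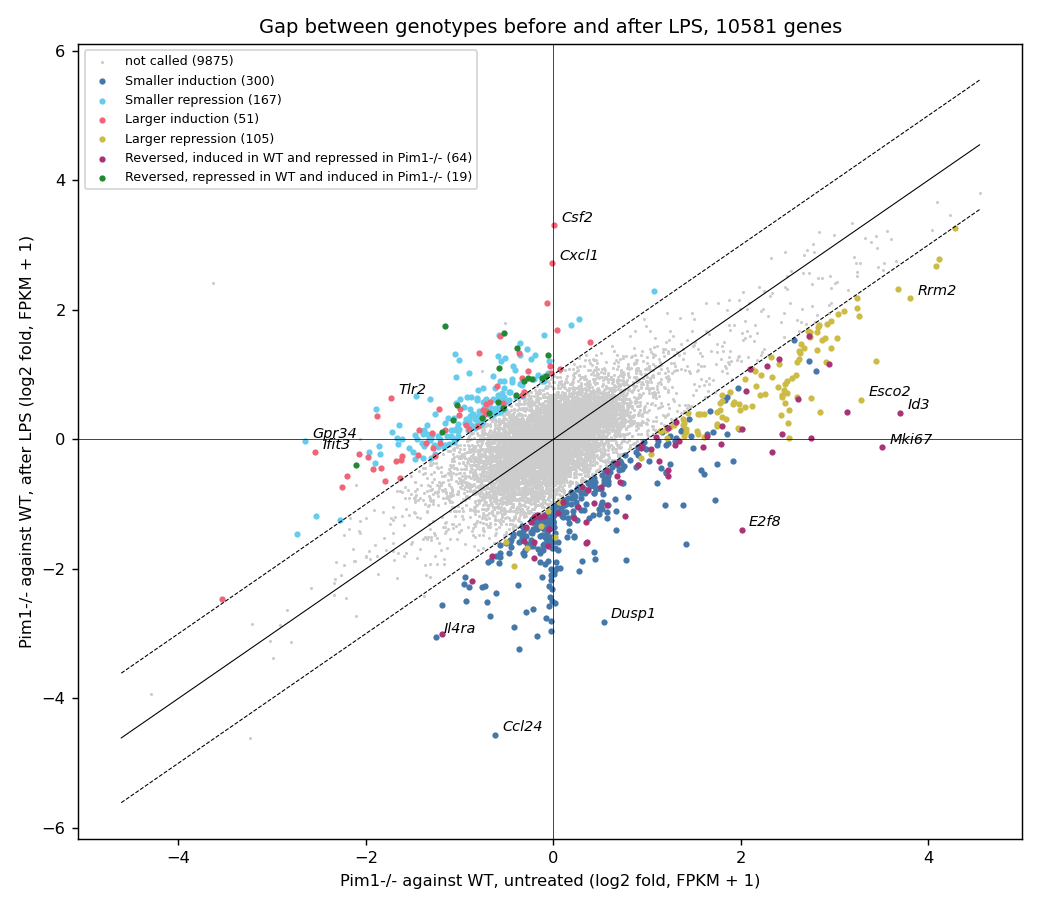
Gap between genotypes in untreated cells (x axis) and after LPS (y axis), both as log2 fold of Pim1-/- against WT on FPKM + 1, for the same genes and classes. Points below the dashed band have a lower response in Pim1-/- cells: Ccl24 and Dusp1 separate after LPS, whereas Esco2, Id3 and Mki67 are apart in untreated cells and closer to the zero line after LPS.

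Among the receptors and signalling genes that lead from LPS to transcription, 1 of 25 tested was called, beside 6.67% of all genes. This was Tlr2, the receptor for bacterial lipopeptides, and under quantile normalization 3 were called. Tlr2 was at 45.1, 47.4 and 46.2 FPKM in untreated WT libraries and 213, 220 and 216 FPKM after LPS, against 12.8, 13.1 and 13.7 FPKM in untreated Pim1-/- libraries and 330.1, 338 and 344 FPKM after LPS. The order of the genotypes turned over, with every Pim1-/- library below WT before LPS and above it after. The difference in response was 2.37 (standard error 0.05, limma adjusted p = 1.9e-13). The median over the list was 0.23, beside -0.0 over all genes. Cd14, the co-receptor for LPS and the most abundant gene of the list, rose to 1861 ± 56.6 FPKM in WT against 1699 ± 60.2 FPKM (SD, n = 3 each) in Pim1-/- cells, with a difference of -0.07. The genes for NF-kB subunits and their inhibitors had no call among 12, or 1 higher under quantile normalization (8 above 0 and 4 below, median 0.15), with 2 at an FDR under 0.1 in the lower and 7 in the higher direction. Nfkbia, an inhibitor induced by NF-kB itself, rose 33.7-fold in WT and 38.0-fold in Pim1-/- cells. Of 11 AP-1 and EGR factors 2 were lower, Fosl2 (-1.34) and Jun (-1.19), and with a pseudocount of 0.1 FPKM 4 were lower and 2 higher. Jun was the clearer of these in level, at 33.6, 36.0 and 36.5 FPKM before and 35.6, 34.9 and 36.1 FPKM after LPS in WT, and at 31.0, 31.1 and 34.3 FPKM before and 13.02, 13.3 and 14.3 FPKM after LPS in Pim1-/- cells. WT libraries overlapped across treatment, while those of Pim1-/- cells did not.

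The cytokine and chemokine genes split by gene, with calls in both directions. The strongest gain was in Csf2, which encodes GM-CSF, a growth factor for myeloid cells. It was listed at 0 in all untreated WT libraries and in 2 of 3 untreated Pim1-/- libraries, the third being at 0.0269 FPKM. After LPS it was at 1.22, 1.91 and 0.790 FPKM in WT and at 23.4, 20.1 and 20.9 FPKM in Pim1-/- libraries, with no overlap. The difference in response was 3.30 (standard error 0.17, limma adjusted p = 3.8e-10). No other of the 7 colony-stimulating factor and receptor genes tested was called (median 0.27), and Csf1r, the M-CSF receptor, had a difference of 0.27.

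All 3 tested chemokines that attract neutrophils through CXCR2 were more strongly induced in Pim1-/- cells, with a median difference of 2.17. Cxcl1 went from at most 0.105 FPKM to 273, 249.6 and 239 FPKM in WT and from at most 0.149 FPKM to 1772, 1707 and 1542 FPKM in Pim1-/- libraries (difference 2.73, standard error 0.09, limma adjusted p = 4.6e-12). Cxcl3 reached 50.7, 46.1 and 44.3 FPKM in WT and 213, 196 and 206 FPKM in Pim1-/- libraries (difference 2.17). Cxcl2 reached 1117, 1032 and 1060 FPKM in WT and 2718, 2664 and 2731 FPKM in Pim1-/- libraries (difference 1.70). In all 3 the untreated cells were near 0 in both genotypes and the gap opened after LPS. The genes lie beside each other on chromosome 5, and each has the same NF-kB-type motif close to its start site. Below are the 250 bases before the RefSeq start of each, on the plus strand of GRCm38.p6, in lower case with the motif in capitals, at chr5:90890995-90891244 for Cxcl1, chr5:90903649-90903898 for Cxcl2 and chr5:90785851-90786100 for Cxcl3.
Cxcl1: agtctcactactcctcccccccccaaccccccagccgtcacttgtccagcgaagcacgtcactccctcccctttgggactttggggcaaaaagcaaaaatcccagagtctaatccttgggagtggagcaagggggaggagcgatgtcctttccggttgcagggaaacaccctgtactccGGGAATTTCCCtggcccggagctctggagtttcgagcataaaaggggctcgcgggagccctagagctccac
Cxcl2: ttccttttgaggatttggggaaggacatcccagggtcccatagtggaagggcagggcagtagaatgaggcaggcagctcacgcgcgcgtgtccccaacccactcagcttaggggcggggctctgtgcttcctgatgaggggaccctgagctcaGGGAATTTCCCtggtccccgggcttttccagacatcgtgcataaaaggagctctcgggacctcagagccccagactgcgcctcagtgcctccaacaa
Cxcl3: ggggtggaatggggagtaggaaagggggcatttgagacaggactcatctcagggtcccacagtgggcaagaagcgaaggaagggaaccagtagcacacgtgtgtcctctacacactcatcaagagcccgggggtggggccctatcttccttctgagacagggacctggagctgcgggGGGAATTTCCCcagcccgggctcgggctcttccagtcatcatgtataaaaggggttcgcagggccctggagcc
The motif searched was GGGA and TTCC with any 2 bases between them, on both strands, and the capitals cover 2 overlapping matches, from position -71 in Cxcl1, -97 in Cxcl2 and -73 in Cxcl3 relative to the start. It was in 3 of 4 promoters of the CXCR2 ligand list, in 5 of 39 promoters of genes with larger induction, in 4 of 274 of genes with smaller induction (1.46%) and in 1.21% of all 32851 promoters. Cxcl1, Cxcl2 and Cxcl3 belong to the class of larger induction, so their 3 promoters are among those 5 and the shares are not separate counts. The looser form, GGGA and CC with any 4 bases between them, was in 17.6% of all promoters. It was in 35.9% of those with larger and 25.5% of those with smaller induction. In the mitosis list it was in 37.5% of promoters, and in the list of cholesterol synthesis and Ch25h in 42.1%. These motifs were chosen for display after the matches were seen, and a match is only a string of letters.

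The 3 ligands of CXCR3, a receptor on T and NK cells, went in different directions. Cxcl9 reached 196, 194 and 192 FPKM in WT and 46.4, 45.2 and 42.8 FPKM in Pim1-/- libraries after LPS, from under 0.02 FPKM in every untreated library (difference -2.07, standard error 0.06, limma adjusted p = 1.7e-12). Untreated libraries all listed Cxcl11 at 0, and it reached 116.5, 110.3 and 117 FPKM in WT and 49.2, 48.8 and 44.1 FPKM in Pim1-/- libraries (difference -1.26, or -0.92 under quantile normalization). Cxcl10 was called higher, with a difference of 1.84, and its levels ran differently. Its level after LPS was lower in Pim1-/- libraries (10010, 9943 and 9737 FPKM) than in WT (11380, 11950 and 11560 FPKM), but its level without LPS was lower by much more, at 0.336, 0.329 and 0.349 FPKM against 4.35, 4.47 and 5.10 FPKM. The rise in FPKM was 11630 in WT and 9897 in Pim1-/- cells, so the larger response of Cxcl10 holds for the ratio and not for the amount added.

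CC chemokines were called lower in 3 of 12 and higher in 1, with a median of -0.13 that was 0.15 under quantile normalization. With a pseudocount of 0.1 FPKM 1 was lower and 1 higher. Ccl24, or eotaxin-2, had the lowest difference of all called genes. It was at 0.483, 0.679 and 0.642 FPKM before and 81.5, 78.7 and 81.3 FPKM after LPS in WT, and at 0.0397, 0.0909 and 0 FPKM before and 2.45, 2.34 and 2.60 FPKM after LPS in Pim1-/- libraries. The difference in response was -3.94 (standard error 0.08, limma adjusted p = 7.0e-14), and it was -2.65 with a pseudocount of 0.1 FPKM, because the gene was also lower before LPS. Ccl12, a monocyte attractant, had -1.35 (group means of 506 and 182 FPKM after LPS in WT and in Pim1-/- cells). Ccl8 had -1.76, but -0.45 with a pseudocount of 0.1 FPKM, which ended the call, and its ratio of LPS to untreated means was 60.5 in WT and 63.7 in Pim1-/- cells. Ccl17, a ligand of CCR4, was more induced, at 73.4, 76.8 and 74.6 FPKM in WT and 265, 229 and 238 FPKM in Pim1-/- libraries after LPS (difference 1.65). Ccl3, the most abundant of the list, had 0.60 and was not called.

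In the IL-1 family 1 of 6 genes was called lower, and with a pseudocount of 0.1 FPKM 1 more was called higher. Il1rn, which encodes the antagonist of the IL-1 receptor, was at 2.27, 2.15 and 2.28 FPKM before and 721, 714 and 696 FPKM after LPS in WT, and at 2.10, 2.48 and 2.44 FPKM before and 185, 183 and 172 FPKM after LPS in Pim1-/- libraries. The untreated libraries of the genotypes overlapped and those after LPS did not. The difference was -2.02 (standard error 0.07, limma adjusted p = 6.2e-12). Il1b, the agonist, reached 8515 ± 135 FPKM in WT but 4436 ± 321 FPKM in Pim1-/- cells after LPS (SD, n = 3 each), but it was lower before LPS too, and its difference of -0.18 was not called and turned to 1.19 with a pseudocount of 0.1 FPKM. Among 5 subunits of IL-12, IL-23 and IL-27 only Il27 was called (-1.06), and it fell short of 2-fold with a pseudocount of 0.1 FPKM (-0.93), under quantile normalization (-0.92) and without untreated WT replicate 2 (-0.94). Il12b, the subunit shared by IL-12 and IL-23, had 0.21.

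Of 9 genes of the IL-6 and IL-10 families, 2 were lower and 1 higher, or 1 and 1 under either alternative scale. Il19 reached 13.3, 14.5 and 14.6 FPKM in WT and 1.78, 1.38 and 2.24 FPKM in Pim1-/- libraries (-2.41), from 0.0599 FPKM or less in every untreated library. Clcf1, a cytokine of the IL-6 family, had -1.13. Osm, which encodes oncostatin M, rose from 3.74, 3.33 and 3.49 FPKM to 7.59, 7.64 and 7.95 FPKM in WT and from 2.62, 2.44 and 2.74 FPKM to 15.0, 16.2 and 16.3 FPKM in Pim1-/- libraries (1.27). Il6 itself was at 1300, 1301 and 1233 FPKM in WT and 1418, 1418 and 1237 FPKM in Pim1-/- libraries after LPS, which overlapped, and its difference was 0.08 (standard error 0.07, limma adjusted p = 0.319). Il10, an anti-inflammatory cytokine, had a difference of -0.81, under the fold threshold, with 48.8 ± 0.802 FPKM after LPS in WT against 21.9 ± 1.17 FPKM in Pim1-/- cells (SD, n = 3 each). Its untreated means were 0.468 and 0.181 FPKM, and the ratio of LPS to untreated means was 104 in WT and 121 in Pim1-/- cells. In the TNF superfamily 1 of 9 was lower and 1 higher, or 1 and 4 with a pseudocount of 0.1 FPKM. Tnfsf9, the ligand of 4-1BB, was at 2.68, 2.92 and 3.00 FPKM before and 244, 241 and 240.5 FPKM after LPS in WT, and at 8.44, 6.84 and 8.31 FPKM before and 115, 116 and 126 FPKM after LPS in Pim1-/- libraries. The genotypes did not overlap in either treatment, and their order turned over with LPS (-2.21). Tnfsf8, the ligand of CD30, had 1.11. Tnf rose to 3734 ± 104 FPKM in WT and, in Pim1-/- cells, to 3959 ± 195 FPKM (SD, n = 3 per group), with a difference of 0.07 (limma adjusted p = 0.403).

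**Figure D3:**
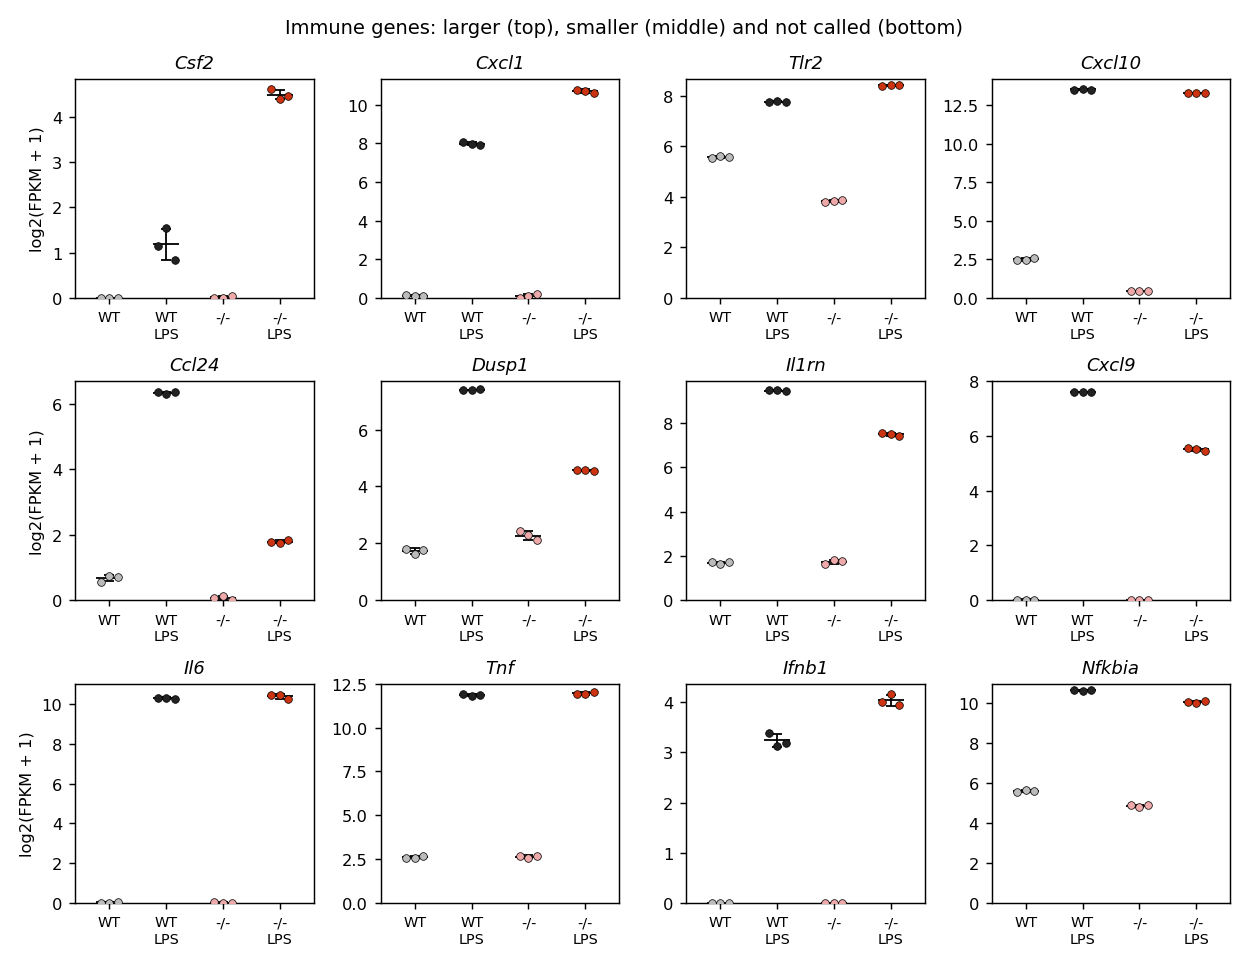
Levels of 12 immune genes as log2(FPKM + 1) on linear axes that start at 0, with 1 point per library in untreated WT, LPS-treated WT, untreated Pim1-/- and LPS-treated Pim1-/- cells (marked -/-), and a bar with whiskers for the mean and SD of 3 libraries. The upper row shows genes called higher, the middle row genes called lower and the lower row genes not called; Tlr2 changes order between genotypes, and Cxcl10 and Tlr2 differ before LPS.

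Among feedback genes of LPS signalling the calls were in the lower direction. Of 14 genes of the SOCS and dual-specificity phosphatase (DUSP) families tested, 4 were lower and 0 higher (median -0.58), and 4 were lower under quantile normalization and 5 with a pseudocount of 0.1 FPKM. With the FDR alone 9 were lower and 2 higher, the latter being Dusp4 (0.77) and Socs6 (0.70). Dusp1 encodes the phosphatase that switches off p38 and JNK. It was at 2.48, 2.05 and 2.44 FPKM before and 166, 166 and 169 FPKM after LPS in WT, and at 4.38, 3.86 and 3.31 FPKM before and 22.9, 22.8 and 22.5 FPKM after LPS in Pim1-/- libraries. The Pim1-/- libraries lay above WT before LPS and far below it after. The difference was -3.36 (standard error 0.10, limma adjusted p = 1.2e-12). Dusp16, a phosphatase for JNK, had -1.72, and Dusp2, which acts on ERK, had -1.41. Socs1, an inhibitor of JAK kinases, reached group means of 134 and 47.1 FPKM in WT and in Pim1-/- cells with a difference of -1.35. Socs3, the most abundant of the list, had -0.58.

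Ifnb1, the gene for interferon-beta, was listed at 0 in all 6 untreated libraries. After LPS it was at 9.52, 7.80 and 8.18 FPKM in WT and at 15.1, 17.0 and 14.5 FPKM in Pim1-/- libraries, which did not overlap. The difference in response was 0.80 (standard error 0.10, limma adjusted p = 4.1e-06), under the fold threshold, and 0.86 with a pseudocount of 0.1 FPKM and 0.78 under quantile normalization.

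Among 62 ISGs tested, all of which rose more than 2-fold with LPS in both genotypes, 7 had a larger and 1 a smaller response in Pim1-/- cells, and the median difference was 0.14. These 7 were Ifit3 (2.34), Ifit1 (1.71), Rtp4 (1.46), Rsad2 (1.34), Gbp3 (1.31), Gbp7 (1.16) and Ifit2 (1.05). The number called higher was 15 with a pseudocount of 0.1 FPKM and 15 under quantile normalization. With the FDR alone 22 of the 62 had a lower and 31 a higher response, beside 35.8% and 32.7% of all genes. As with Cxcl10, the ratio and the amount went apart, because in all 7 the rise in FPKM was smaller in Pim1-/- cells. Ifit1, whose product binds foreign RNA, was at 4.87, 5.86 and 5.43 FPKM before and 2252, 2339 and 2287 FPKM after LPS in WT, and at 0.525, 0.724 and 0.604 FPKM before and 1992, 2013 and 1703 FPKM after LPS in Pim1-/- libraries. Its fold was 426 in WT and 3080 in Pim1-/- cells, while its rise was 2287 and 1902 FPKM. Ifit3 was at 7.80, 8.85 and 8.84 FPKM before and 904, 908 and 878 FPKM after LPS in WT, and at 0.748, 0.428 and 0.729 FPKM before and 827, 797 and 722 FPKM after LPS in Pim1-/- libraries. Reads of Ifit3 can be shared with a near-identical neighbour, so its value is uncertain. Over the list the median gap between genotypes was -0.69 in untreated cells and -0.62 after LPS. The gene called lower, Iigp1, an immunity-related GTPase, had -1.10 and lost the call with a pseudocount of 0.1 FPKM, where 0 ISGs were lower. Isg15 had 0.71 and was not called (limma adjusted p = 2.5e-04), although it reached 1.05 under quantile normalization, and Ifit2 was at the threshold, at 1.00 when any of 3 libraries was left out (untreated WT replicate 2 or 3, or LPS-treated Pim1-/- replicate 2).

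The promoters of Cxcl10 and Ifit3 show the motif through which interferon signalling reaches many ISGs (the ISRE), searched as TTTC and TTTC with any 2 bases between them, on both strands, and set in capitals. Shown are the 250 bases before the RefSeq start, at chr5:92348890-92349139 of GRCm38.p6 for Cxcl10 (minus strand) and chr19:34583279-34583528 for Ifit3 (plus strand), each read along the gene.
Cxcl10: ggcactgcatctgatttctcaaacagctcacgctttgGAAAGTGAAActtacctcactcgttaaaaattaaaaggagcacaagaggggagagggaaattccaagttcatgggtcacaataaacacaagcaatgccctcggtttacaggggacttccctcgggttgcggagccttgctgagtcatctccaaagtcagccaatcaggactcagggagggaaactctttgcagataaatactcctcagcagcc
Ifit3: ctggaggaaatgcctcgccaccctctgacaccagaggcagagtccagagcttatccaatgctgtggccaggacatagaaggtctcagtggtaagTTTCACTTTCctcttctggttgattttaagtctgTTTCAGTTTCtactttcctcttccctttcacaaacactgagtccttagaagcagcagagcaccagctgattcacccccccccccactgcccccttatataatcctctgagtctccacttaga
The motif lies at -213 in Cxcl10 and at -156 and -122 in Ifit3. It was in 25 of 64 promoters of the 52 ISGs matched (39.1%), in 7 of 39 promoters of genes with larger induction (17.9%), in 10 of 274 of genes with smaller induction (3.65%) and in 2.98% of all promoters. The class of larger induction holds ISGs, so these shares are not separate counts. The Cxcl10 stretch also holds a match to the NF-kB-type motif searched above (gggaaattcc, left in lower case). That motif was in 1 of 2 promoters of the CXCR3 ligand list.

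Some genes of each cell cycle list were called lower in Pim1-/- cells, and in the replication, mitosis and E2F lists most were not called. With the FDR alone the response was lower for 26 of 34 replication, 30 of 36 mitosis and 9 of 13 E2F family genes. It was higher for 3, 2 and 4 of them, beside 35.8% lower and 32.7% higher over all genes. Of 34 DNA replication genes 8 were called lower (median -0.61), of 36 mitosis genes 14 (median -0.82), of 13 E2F and retinoblastoma family genes 4 (median -0.63) and of 15 G1 cyclins, CDK inhibitors and Myc 8 (median -1.15), with 0 called higher in each list. The counts for replication and mitosis were 9 and 9 with a pseudocount of 0.1 FPKM, where 1 gene in each, and 1 of the E2F family, was higher, and 16 and 27 under quantile normalization. By the ratio of LPS to untreated means the picture was more mixed, since that ratio was higher in Pim1-/- than in WT cells for 12 of 34 replication and 14 of 36 mitosis genes. Ccnb1 and Cdk1, the pair that drives entry into mitosis, were among these, with ratios of 0.279 and 0.302 in WT against 0.511 and 0.535 in Pim1-/- cells, and so were Bub1b and Anln, which were called lower on the log2(FPKM + 1) scale. Pim1-/- cells had the higher levels, with a median gap of 2.08 for replication and 3.12 for mitosis genes in untreated cells and of 1.67 and 2.59 after LPS. The median response to LPS was a fall in both genotypes. It was -0.54 in WT and -0.96 in Pim1-/- cells for replication genes, and -0.64 and -1.44 for mitosis genes. In WT 7 of 34 replication and 5 of 36 mitosis genes rose, and in Pim1-/- cells 3 and 1 did. In bulk RNA a change in the share of dividing cells cannot be told apart from a change of RNA per cell.

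Mki67, the proliferation marker Ki-67, was the member with the lowest difference. It was at 3.15, 2.87 and 2.69 FPKM before and 28.0, 29.7 and 28.1 FPKM after LPS in WT, and at 40.9, 44.0 and 45.5 FPKM before and 26.4, 26.1 and 26.1 FPKM after LPS in Pim1-/- libraries. LPS raised it in WT and lowered it in Pim1-/- cells, and the genotypes ended near each other without overlapping (difference -3.63, standard error 0.07, limma adjusted p = 7.0e-14). E2f8, a repressor of the E2F family, went from 1.53, 1.37 and 1.22 FPKM to 10.4, 10.1 and 9.61 FPKM in WT and from 7.87, 8.65 and 9.18 FPKM to 3.07, 3.47 and 3.05 FPKM in Pim1-/- libraries (-3.41). Tpx2, a spindle assembly factor, had -2.72 and also changed sign. Tmpo (-2.55), which encodes the lamina-associated polypeptide 2, and Id3 (-3.28), an inhibitor of helix-loop-helix factors, belong to the same class of reversed genes. Id3 stood at 4.58 ± 0.201 FPKM in untreated WT and 71.5 ± 5.33 FPKM in untreated Pim1-/- cells and at 32.0 ± 0.903 and 43.0 ± 1.85 FPKM after LPS (SD, n = 3 each).

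Other cell cycle genes fell with LPS from a high level in Pim1-/- cells, while WT levels were low from the start. Ccne2, or cyclin E2, did not pass the test of a response in WT. It was at 0.0467, 0.181 and 0.112 FPKM before and 0.0907, 0.1105 and 0.135 FPKM after LPS in WT, and at 5.89, 5.47 and 4.74 FPKM before and 0.275, 0.472 and 0.248 FPKM after LPS in Pim1-/- libraries. Ccnd1, or cyclin D1, went from 6.50, 6.05 and 5.89 FPKM to 2.53, 2.25 and 2.32 FPKM in WT and from 44.4, 42.8 and 39.6 FPKM to 4.05, 4.52 and 4.25 FPKM in Pim1-/- libraries (-1.95). The genotypes did not overlap in either treatment for Ccnd1, but the gap narrowed. Esco2 (-2.69), which acetylates cohesin, Fbxo5 (-2.43), an inhibitor of the anaphase-promoting complex, Uhrf1 (-2.24), which reads newly replicated methylated DNA, and Arhgef39 (-2.11) had the same shape. For Rrm2, a ribonucleotide reductase subunit, the difference of -1.64 was -0.96 with a pseudocount of 0.1 FPKM, and the ratio of LPS to untreated means was 0.260 in WT and 0.147 in Pim1-/- cells. Not every abundant member differed, since Ube2c, the most abundant mitosis gene, had -0.23 and was not called, although it reached -1.02 under quantile normalization. Another set of members was induced by LPS, less so in Pim1-/- cells. Ccnd2, or cyclin D2, reached 141.5, 144 and 138 FPKM in WT and 65.8, 67.8 and 73.4 FPKM in Pim1-/- libraries (-2.41), Cdkn1a, the CDK inhibitor p21, reached 3024 ± 83.5 and 1236 ± 70.8 FPKM (SD, n = 3 each; -1.46), and Rbl1, which encodes p107, had -2.05. Pcna, the sliding clamp of replication, had -1.17, or -0.92 under quantile normalization, which ended the call.

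**Figure D4:**
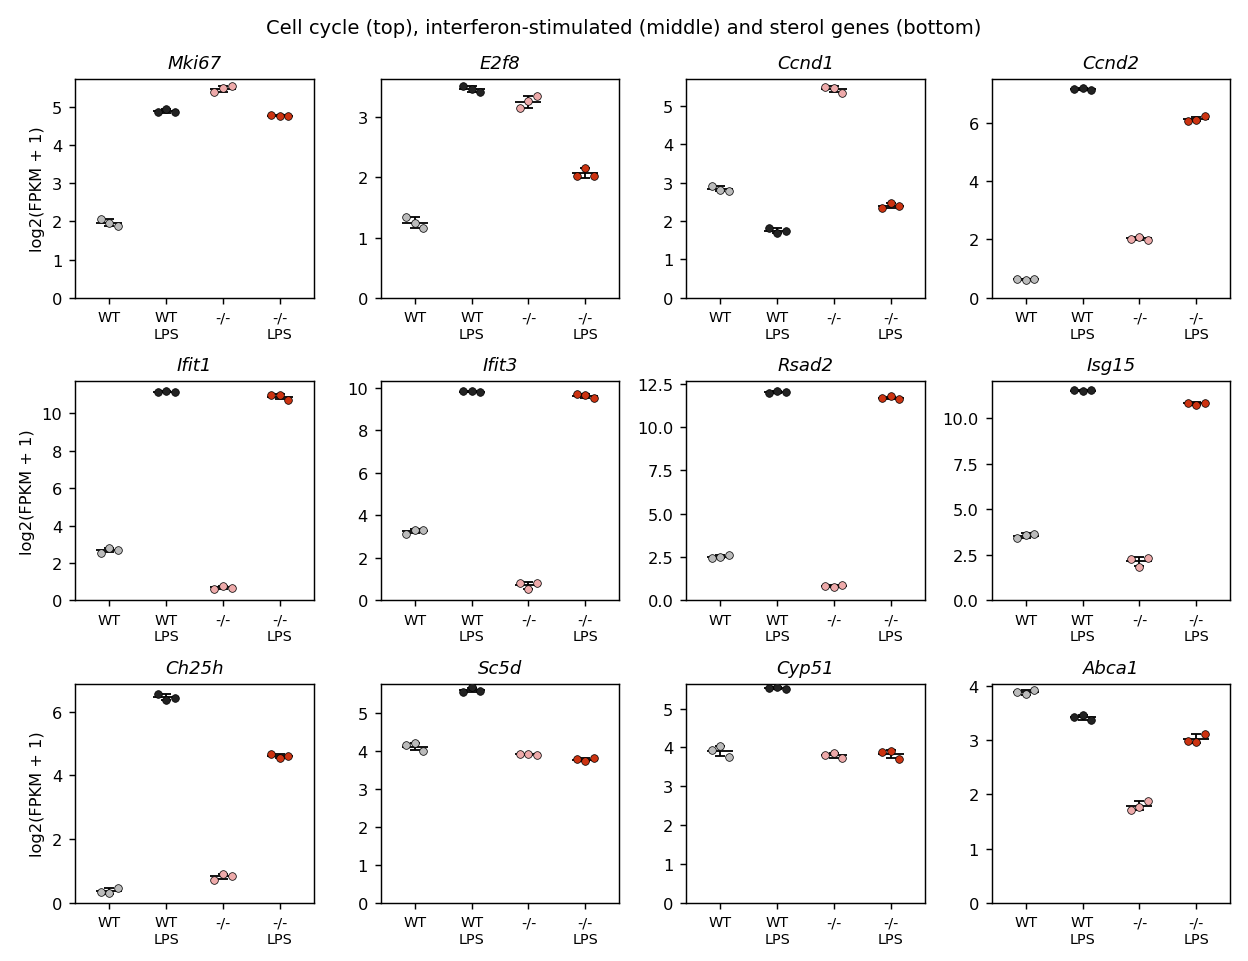
Levels of 12 genes as log2(FPKM + 1), with 1 point per library, the 4 groups and bars as mean and SD of 3 libraries, on axes that start at 0. In the upper row Mki67, E2f8 and Ccnd1 are higher in untreated Pim1-/- cells and fall with LPS, in the middle row the ISGs differ more before LPS than after it, and in the lower row Sc5d and Cyp51 rise with LPS in WT and change little in Pim1-/- cells while Abca1 moves in opposite directions.

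Genes of cholesterol synthesis, listed together with Ch25h, also had calls in the lower direction only. Of 23 tested in this list 11 were lower, Ch25h among them, and 0 higher (median -0.94), beside 4.43% and 2.24% of all genes. With a pseudocount of 0.1 FPKM 12 were lower, and under quantile normalization 6 were. Their untreated levels were near each other in the genotypes (median gap -0.32), and the median response to LPS was 0.67 in WT and -0.20 in Pim1-/- cells. Sc5d, a late enzyme of the pathway, went from 16.6, 17.4 and 14.9 FPKM to 46.0, 49.8 and 46.3 FPKM in WT and from 14.11, 13.95 and 13.83 FPKM to 12.6, 12.2 and 13.01 FPKM in Pim1-/- libraries (difference -1.62, standard error 0.08, limma adjusted p = 1.3e-10). Cyp51 went from 14.2, 15.4 and 12.5 FPKM to 45.2, 45.7 and 44.3 FPKM in WT and from 12.9, 13.4 and 12.3 FPKM to 13.8, 13.9 and 12.0 FPKM in Pim1-/- libraries (-1.58). Before LPS the Cyp51 libraries of the genotypes overlapped and those of Sc5d lay close without overlapping, and after LPS both genes were well apart. Sqle, or squalene epoxidase, rose in WT (13.3 ± 1.12 to 18.7 ± 1.15 FPKM) and fell in Pim1-/- cells (12.6 ± 0.297 to 5.29 ± 0.124 FPKM; SD, n = 3 each), with a difference of -1.58. Idi1 (-1.57), Hsd17b7 (-1.35), Msmo1 (-1.19), Fdps (-1.07) and Hmgcs1 (-1.05) were also lower. Fdft1, the most abundant of the list, did not follow, with a difference of 0.00 and a gap of -0.90 in both treatments. Ch25h, which makes the signalling oxysterol 25-hydroxycholesterol, reached 93.8, 82.0 and 85.0 FPKM in WT and 24.7, 22.3 and 23.5 FPKM in Pim1-/- libraries (-2.29). The Hmgcs1 promoter is shown as the 1 promoter among 19 of this list with the sterol-type motif TCACNCCAC in 250 bases, at -137, a string in 1.05% of all promoters (plus strand, GRCm38.p6, chr13:119690101-119690350, motif in capitals).
Hmgcs1: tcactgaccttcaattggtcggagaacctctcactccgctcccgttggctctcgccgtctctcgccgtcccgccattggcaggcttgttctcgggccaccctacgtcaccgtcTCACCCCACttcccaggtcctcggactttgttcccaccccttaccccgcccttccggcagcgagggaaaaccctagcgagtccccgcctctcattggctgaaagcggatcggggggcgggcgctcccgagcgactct

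The sterol exporters Abca1 and Abcg1 went the other way. Of 11 LXR targets tested 2 were higher and 0 lower (median -0.04). Abca1, which loads cholesterol onto lipoproteins, went from 13.7, 13.4 and 14.3 FPKM to 9.77, 10.0 and 9.33 FPKM in WT and from 2.28, 2.42 and 2.68 FPKM to 6.96, 6.85 and 7.69 FPKM in Pim1-/- libraries. It stayed lower in Pim1-/- cells in both treatments while the direction of the response turned over (1.71). Abcg1 fell in WT from 18.6 ± 0.670 to 7.35 ± 0.236 FPKM and was at 14.5 ± 1.14 and 14.3 ± 0.840 FPKM (SD, n = 3 each) in Pim1-/- cells (1.21). Apoe, the most abundant of the list, had 0.18.

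In the sugar, lipid mediator, redox and stress lists a minority of genes was called, in each a larger share than the 6.67% over all genes. Of 19 glycolysis genes 4 were lower and 0 higher (median -0.52), and 17 of 19 were lower at an FDR under 0.1 without the fold threshold. Pfkfb3, which makes the activator of phosphofructokinase, reached 189, 184 and 184 FPKM in WT and 26.3, 25.7 and 29.9 FPKM in Pim1-/- libraries after LPS (-2.05), from 6.86 to 7.43 FPKM and 4.06 to 4.19 FPKM before it. Slc2a1, the glucose transporter GLUT1, had -1.60, Slc16a3, a lactate exporter, -1.52, and Pfkp -1.08. Gapdh, the most abundant of the list, had -0.47. In the list of arginine, nitric oxide, itaconate and prostaglandin enzymes 2 of 13 were lower and 0 higher, or 2 and 1 with a pseudocount of 0.1 FPKM. Ptges, the inducible prostaglandin E synthase, reached 68.1, 64.5 and 66.7 FPKM in WT and 10.0, 9.58 and 10.2 FPKM in Pim1-/- libraries (-2.41), and Ptger4, a receptor for prostaglandin E2, had -1.52. Irg1, which makes itaconate, had -0.42 and was not called. Of 17 NRF2 targets 2 were lower, Gsr (-1.59), or glutathione reductase, and Txn1 (-1.29), or thioredoxin. Sqstm1, the autophagy receptor p62 and the NRF2 target called higher, rose from 269, 267 and 263 FPKM to 785, 744 and 755 FPKM in WT and from 217, 214 and 231 FPKM to 1565, 1569 and 1633 FPKM in Pim1-/- libraries (1.33). Of 20 unfolded protein and ATF4 genes 3 were lower and 1 higher, or 3 and 2 under either alternative scale. Psat1 and Mthfd2, enzymes of serine and one-carbon metabolism, had -2.36 and -1.52, from untreated levels of 4.41 and 3.58 FPKM in WT against 28.4 and 29.4 FPKM in Pim1-/- cells. Creld2 had -1.07 and Sesn2 1.26, while the chaperone gene Hspa5 had -0.71 and was not called.

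Of 13 macrophage markers tested 0 were called, beside 6.67% of all genes, so that count does not set so short a list apart. Their median was -0.07, or 0.13 under quantile normalization. At an FDR under 0.1 the response was lower for 6 and higher for 4, beside 35.8% and 32.7% of all genes. Lyz2, the lysozyme gene of macrophages, was the most abundant at 26300 and 13300 FPKM in untreated WT and Pim1-/- cells, and had a difference of 0.01. The markers were thus present in every group, and their median gap of -0.68 in untreated cells was also seen after LPS (-0.90). Among 15 genes of alternative activation 3 were lower and 2 higher, but 2 lower and 5 higher under quantile normalization. Il4ra, the IL-4 receptor chain, rose in WT from 24.5, 26.3 and 26.0 FPKM to 113, 110 and 115 FPKM and in Pim1-/- libraries from 10.0, 9.76 and 10.9 FPKM to 13.3, 12.2 and 12.7 FPKM (-1.80). Tgm2, a transglutaminase, had -1.02, which was -0.85 under quantile normalization, -0.99 without untreated Pim1-/- replicate 3 and at the threshold without LPS-treated Pim1-/- replicate 2. Irf4 had 1.06, and Ccl24 and Ccl17 are given above. In the MHC class II pathway 1 of 8 was higher, and 4 were under quantile normalization. Ciita, the regulator of class II genes, rose from 2.029, 1.795 and 2.004 FPKM to 4.43, 4.45 and 4.31 FPKM in WT and from 0.196, 0.252 and 0.333 FPKM to 6.02, 6.45 and 7.00 FPKM in Pim1-/- libraries (1.69). All 8 members lay above 0, with a median of 0.44. Of 12 integrins 1 was lower, Itgal (-1.20, or -0.88 under quantile normalization), the alpha chain of LFA-1. Of 7 chemokine receptors 1 was lower, Ccr1 (-1.15), and 1 higher, Cxcr4 (1.87), with 2 higher under quantile normalization. Cxcr4, the receptor for CXCL12, fell from 140.1, 138 and 138 FPKM to 1.32, 1.13 and 1.73 FPKM in WT and from 87.8, 89.8 and 98.3 FPKM to 5.28, 4.10 and 5.11 FPKM in Pim1-/- libraries, so the repression was strong in both genotypes and stronger in WT. The other Pim kinases had no call, with Pim2 at -0.59 and Pim3 at 0.01.

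Further genes lead their class outside the lists. Mt2, a metallothionein that binds zinc, was at 17.3, 14.8 and 13.9 FPKM before and 549.8, 569 and 605 FPKM after LPS in WT, and at 43.1, 43.8 and 40.4 FPKM before and 198, 179 and 181 FPKM after LPS in Pim1-/- libraries (-3.04). Lipg, or endothelial lipase, reached group means of 174 and 21.6 FPKM in WT and in Pim1-/- cells (-2.93), and Fscn1, the actin-bundling protein fascin, 87.1 and 8.34 FPKM (-2.88). In each of these 3 genes the libraries of the genotypes did not overlap after LPS. Gpr34, a receptor for lysophosphatidylserine, fell from 16.6, 17.7 and 16.1 FPKM to 0.276, 0.315 and 0.168 FPKM in WT and from 1.76, 1.92 and 1.81 FPKM to 0.328, 0.186 and 0.165 FPKM in Pim1-/- libraries. The libraries of the genotypes overlapped after LPS and were apart before it (2.62). Pdcd4, an inhibitor of translation, had 2.2 from the other side: it fell to 0.327 FPKM in WT and to 3.07 FPKM in Pim1-/- cells (group means). Tcp11l2 (2.36), Abtb1 (2.23) and Arhgap19 (2.13) were also less repressed. Among genes that fell in WT and rose in Pim1-/- cells, Klhl24, an adaptor for ubiquitin ligases, went from 17.9, 19.6 and 18.3 FPKM to 4.97, 5.22 and 4.83 FPKM in WT and from 12.0, 13.5 and 12.5 FPKM to 18.1, 19.3 and 16.0 FPKM in Pim1-/- libraries (2.16). Crebrf (1.81) and Fabp4 (1.69), which encodes a fatty acid-binding protein, had the same shape. Calcoco1 (1.55), an autophagy receptor, fell in WT and rose little in Pim1-/- cells. Its Pim1-/- libraries overlapped, at 12.2, 11.94 and 14.01 FPKM before and 14.47, 13.47 and 15.6 FPKM after LPS. H2-K2 (2.23), a class I gene, shares sequence with its neighbours and is uncertain.

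**Figure D5:**
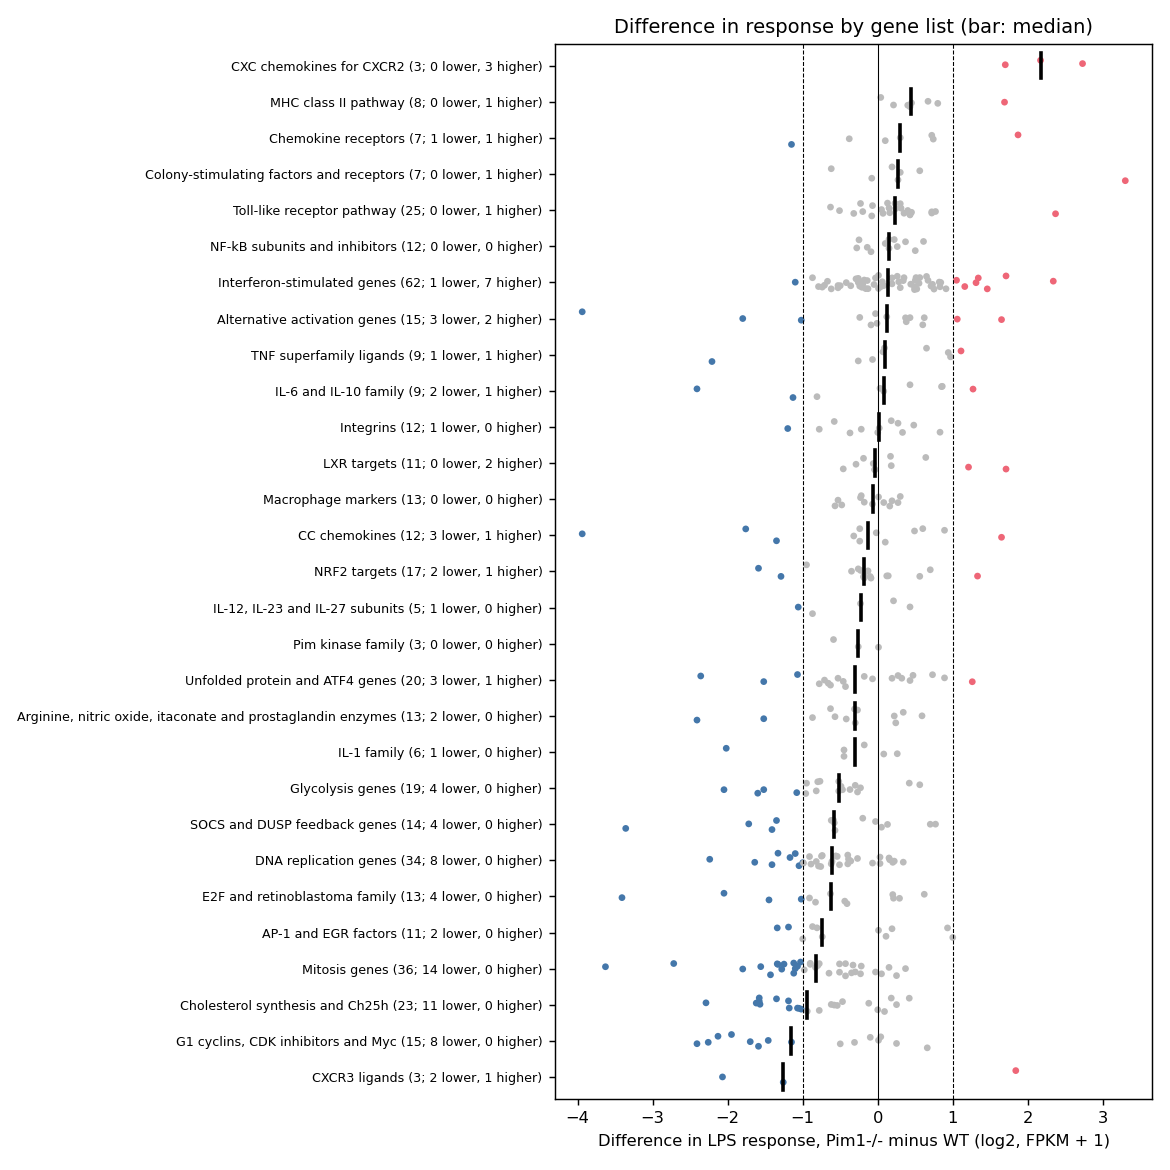
Difference in LPS response (Pim1-/- minus WT, log2 on FPKM + 1, x axis) for each tested gene of the 29 lists (rows, with the number tested and called), where blue points were called lower, red points higher and grey points not called, and bars mark the median. The vertical position within a row carries no value; the cell cycle and cholesterol lists reach to the left and the CXCR2 ligands lie on the right.

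Replicates agreed closely, with Pearson's r across genes of 0.9958 to 0.9978 within groups and a median coefficient of variation of 3.03% to 5.12%. The summed FPKM was higher after LPS in both genotypes. It was 467484 to 489710 in untreated WT and 452511 to 472138 in untreated Pim1-/- libraries, which overlapped. After LPS it was 837585 to 849323 in WT and 713307 to 743912 in Pim1-/- libraries, which did not overlap. Of 52 listed markers of 7 other cell types, 43 were under 1 FPKM in all groups. Lcn2, which macrophages also express after LPS, was the only one at 10 FPKM or more, with a difference of -2.0. The 9 neutrophil markers summed to 1.67 to 2.02 FPKM in untreated WT, 72.9 to 76.4 FPKM in WT after LPS, 3.26 to 4.21 FPKM in untreated Pim1-/- and 17.7 to 21.0 FPKM in Pim1-/- libraries after LPS. Most of each sum after LPS was Lcn2, whose group mean was 67.3 FPKM for WT, against 14.7 for Pim1-/-. Most of each untreated sum was S100a8. Its untreated mean was higher in Pim1-/- (3.41 FPKM) than in WT (1.29 FPKM). With LPS the S100a8 means were close, at 3.85 and 3.81 FPKM, and its difference of -0.98 was not called. Camp was at 0 in every untreated library and averaged 0.474 FPKM with LPS in WT, against 0.269 in Pim1-/-. Retnlg was listed at 0 in every library and Mpo and Elane did not exceed a group mean of 0.05 FPKM. Besides Lcn2, the markers called were S100a9 (-1.18) and the stromal gene Pdgfrb (-1.24). The part of such cells in the differences was not tested.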

How the data were processed

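Strand-specific mRNA libraries of 12 BMDM samples were sequenced. Per the labels and the study's methods, the authors trimmed reads (cutadapt 1.18), aligned them with TopHat2 2.0.13 and computed FPKM values with Cuffdiff 2.2.1; the deposited table does not itself name the unit. The labels name the mouse build mm10 and the methods a rat build. FPKM carries no read counts, so depth per sample is unknown and no count model was used. Relative depth read from the steps of low values was 0.76 to 1.2, but only 76.4% of 836 of them came within 0.05 of a whole step.

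Values of the genes that reached 1 FPKM in 3 or more libraries were put on the log2(FPKM + 1) scale and fitted with limma 3.58.1 (R 4.3.3, trended variance) with 4 group means, and the difference in response was tested as a contrast over all 10581 genes. To be called, a gene needed p under 0.05, an FDR (Benjamini-Hochberg) under 0.1 and a difference beyond 2-fold. The fit was tested on simulated data. A called gene was reversed when its responses had opposite signs, each with an FDR under 0.1; the others were larger or smaller by absolute response. Named genes were Pim1 and those the study measured by other assays, the 5 with the largest difference in each class (highest group mean of at least 10 FPKM, call held without any 1 library, no microRNA, pseudogene or unnamed locus), up to 2 called genes of each list with the largest difference, and the gene of each list with the highest level. Other members named were chosen after their values were seen, and some members are not reported here. The members, lists and classes were chosen with earlier results of these data known. Promoters came from RefSeq (GRCm38.p6). Pseudocounts, filters, scaling, a replicate block, an untrended fit and leaving out each library were tried as alternatives.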

Additional observations from a re-analysis of the deposited data

Results flagged for a closer look

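The results here are singled out because the test of the interaction itself found that the LPS response differed between genotypes. The response of Pim1-/- cells was the lower one in 469 genes and the higher one in 237. All values are differences in response on the log2(FPKM + 1) scale, for the genes that the naming rule of the methods picked. Other called genes, such as Ccl17, Rtp4 and Socs1, are given with the results and are not repeated. No group is large enough for a search for single outlying libraries.

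Among the immune genes picked by that rule the lower differences were Ccl24 -3.94, Dusp1 -3.36, Il19 -2.41, Tnfsf9 -2.21, Cxcl9 -2.07, Il1rn -2.02, Ccl8 -1.76, Dusp16 -1.72, Fosl2 -1.34, Jun -1.19 and Il27 -1.06. The higher ones were Csf2 3.30, Cxcl1 2.73, Tlr2 2.37, Cxcl3 2.17, Cxcl10 1.84, Cxcl2 1.70, Osm 1.27 and Tnfsf8 1.11, together with the ISGs Ifit3 2.34, Ifit1 1.71, Rsad2 1.34 and Ifit2 1.05.

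Among cell cycle genes picked by the rule the values were Mki67 -3.63, E2f8 -3.41, Id3 -3.28, Tpx2 -2.72, Esco2 -2.69, Tmpo -2.55, Fbxo5 -2.43, Ccnd2 -2.41, Ccne2 -2.26, Uhrf1 -2.24, Arhgef39 -2.11, Rbl1 -2.05, Ccnd1 -1.95, Rrm2 -1.64, Cdkn1a -1.46 and Pcna -1.17. Among metabolic and stress genes they were Mt2 -3.04, Lipg -2.93, Ptges -2.41, Psat1 -2.36, Ch25h -2.29, Pfkfb3 -2.05, Sc5d -1.62, Slc2a1 -1.60, Gsr -1.59, Ptger4 -1.52 and Mthfd2 -1.52, and on the higher side Abca1 1.71, Sqstm1 1.33 and Abcg1 1.21.

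Other lower values of genes picked by the rule were Id3 -3.28, Fscn1 -2.88, Tmpo -2.55, Arhgef39 -2.11, Il4ra -1.80, Itgal -1.20, Ccr1 -1.15 and Tgm2 -1.02, with the markers of other cells Lcn2 -2.0, Pdgfrb -1.24 and S100a9 -1.18. Other higher values of such genes were Gpr34 2.62, Tcp11l2 2.36, Abtb1 2.23, H2-K2 2.23, Pdcd4 2.2, Klhl24 2.16, Arhgap19 2.13, Cxcr4 1.87, Crebrf 1.81, Ciita 1.69, Fabp4 1.69 and Calcoco1 1.55.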

How the results depend on the processing

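Of 706 calls, 615 held in each of the 12 fits that left out 1 library. Across those fits there were from 464 to 482 genes with a lower LPS response in Pim1-/- cells and from 224 to 250 genes with a higher LPS response in Pim1-/- cells, and the counts ran from 296 to 310 for smaller induction, 153 to 178 for smaller repression, 46 to 52 for larger induction, 103 to 109 for larger repression, 60 to 68 for genes that rose in WT and fell in Pim1-/- cells and 18 to 21 for the opposite. With a pseudocount of 0.1 FPKM higher responses numbered 510, smaller repression 383, larger induction 95 and genes that fell in WT and rose in Pim1-/- cells 32, and 653 of the 706 calls were shared. Il1b then turned from -0.18 to 1.19, and the cause was not tested. Quantile normalization gave 77 genes with larger induction and shared 572 calls. Without a fold threshold, at an FDR under 0.05, 3520 responses were lower and 3137 higher, with smaller induction in 2534 genes, smaller repression in 2336, larger induction in 616, larger repression in 725, 261 genes that rose in WT and fell in Pim1-/- cells and 185 the opposite; fewer conditions on a call give more calls. No filter, a filter of 5 FPKM, median-ratio scaling and an untrended fit gave 706, 607, 702 and 706 calls.

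Libraries that share a replicate number were not taken as pairs: 9 of 18 correlations of their deviations were over 0.1, with a range from -0.177 to 0.462 over 5410 genes. With the replicate block 707 genes were called, 469 lower and 238 higher, and 706 were shared. Among single named genes outside the fits that left out a library, 682 values kept their direction and side of the threshold, 8 lost and 3 gained a call, 8 uncalled values moved and 1 reversed. Depth limits genes near 0 FPKM, where the pseudocount sets much of the value.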
